A study of Rattus norvegicus with 23 samples.

Results

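The comparison described here is that of 6 daughters of calorie-restricted (CR) dams with 6 daughters of control dams, 12 of the 23 arrays of the series, chosen by the sex and the dam's diet in the sample titles. The other 11 arrays, from 6 control sons and 5 CR sons, serve only to test whether a difference in daughters departs from that in sons. All pups were Wistar rats aged 21 days. CR dams were given 20% fewer calories from the day after delivery to weaning, and control dams ate the same chow freely. The pups themselves were killed in the fed state, and their peripheral blood mononuclear cells (PBMC) were separated from trunk blood on a Ficoll gradient. The labels give 5 CR dams and 11 control dams and do not tie pups to litters. At least 1 pair of the 6 CR daughters therefore shared a dam, and the p-values below, which treat pups as independent, may be too small. The study's title asks for early blood cell transcripts of lipid metabolism that mark nutritional programming.

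Mononuclear blood cells are mostly T cells, B cells, natural killer (NK) cells and monocytes. They take up and make lipids through the same enzymes as liver and fat, so they are used as an accessible readout of metabolic state. Sterol and fatty acid synthesis is driven by the SREBP transcription factors, and lymphocyte movement depends on actin and on traffic between membranes. In bulk RNA, fewer cells of a type and less RNA per cell cannot be told apart.

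Each array compared 1 pup's RNA, labelled with Cy5, with a pool of all samples, labelled with Cy3. Values below are log2 ratios of pup to pool, so 0 is the level of the pool, and a difference is the CR mean minus the control mean on that log2 scale, ± its standard error from limma with n = 6 and 6. Spots set to missing left 5 control values for Cd74 and Rpl38, 5 CR values for Cd3g, and 5 and 5 for Rplp2. Between 20641 and 23734 probes per daughter's array were well above background. The 12 daughters lay on 6 slides, each holding 1 control and 1 CR daughter, so that each difference could also be read within slides. Of 20 T cell, 18 B cell, 20 monocyte and 20 NK cell markers listed, 19, 11, 18 and 15 passed the filter on dim probes. Of these, 19, 11, 15 and 10 were above background on all 12 arrays. The filter itself asks for signal above background, so these counts do not test the tissue label. Platelet markers (10 of 12) and red cell precursor markers (16 of 17) were above background on all 12 arrays too. On the first principal component, which held 23.7% of the variance, CR daughter 5 and control daughter 4 lay farthest to one side at 26 and 21.7. On the second, with 17.5%, CR daughter 6 lay farthest out at 24.5. List medians that moved in sign or by over 1.5 times without CR daughters 5 and 6, an alternative chosen after seeing the data, are given both ways.

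No transcript passed the adjusted threshold in daughters. Of 19787 features (1 probe per gene or unnamed transcript), 0 (0%) had a Benjamini-Hochberg adjusted p under 0.05 in limma, and the smallest adjusted p was 0.643. At an unadjusted p under 0.05 there were 434 features higher in CR daughters (2.19%) and 635 lower (3.21%), 1069 in all against 989 expected by chance. That total was 673 without CR daughter 3 and 1645 without CR daughter 4, and in the latter case 1 feature had an adjusted p under 0.05. The direction of these depended on the scaling: 59.4% of them were lower after loess, 82.6% after median centring, 50.6% with Cy5 alone and 46.3% in the deposited value table. The 6 and 6 values did not overlap for 9 higher features (0.0455%) and 32 lower ones (0.162%). Among the 9855 features with a gene symbol, 4.5% were lower and 1.9% higher at an unadjusted p under 0.05, and 55.2% lay below 0, against 48.4% of all features. These shares are the background for each count over all pups that follows. Without CR daughters 5 and 6, 1574 of 19787 features had an unadjusted p under 0.05, against 1069 with them. Counts without these pups are to be read against that number. Where these pups held the highest or lowest list means of the CR daughters, a shift without them was built in. Genes are named below by the smallest unadjusted p of the fit over all 12 daughters. Every adjusted p of a named gene in that fit lay between 0.643 and 0.975. The median standard error of a difference was 0.076.

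The 12 named genes with the smallest p on the lower side had differences of -0.64 to -0.26. Of these, 11 were lower in the CR daughter on all 6 slides, and in 6 (Pcyt2, Sipa1, Arhgap4, Hnrnpc, Uba1 and Tpm4) the 2 groups did not overlap. As these genes were chosen by small p on the same arrays, such counts follow largely from the choice. The same holds for the leading genes on the higher side. Several of the 12 lower genes act at membranes and on actin. The first, Sorl1, encodes a sorting receptor of the LDL receptor family that carries cargo between the Golgi and endosomes (probe at chr8:44966408-44966467 of rn4, the build of the array design). It read -0.04, -0.015 and 0.30 (lowest, median and highest) in CR daughters and 0.25, 0.51 and 0.62 in control daughters. CR daughter 1 alone reached the range of the controls. The difference was -0.44 ± 0.074, or 1.36-fold lower (adjusted p = 0.643), with the CR daughter lower on 6 of 6 slides.

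Sipa1, which switches off the small GTPase Rap1 and so limits integrin adhesion (probe at chr1:208277152-208277211), read -0.48, -0.13 and 0.36 in CR daughters and 0.38, 0.60 and 0.65 in controls. The groups did not overlap, although the CR daughters were spread far more widely. Its difference was -0.64 ± 0.13, 1.56-fold lower (adjusted p = 0.643). Arhgap4 read -0.04 to 0.20 against 0.27 to 0.64, a difference of -0.32 ± 0.071. Arap1 read -0.12 to 0.29 against 0.29 to 0.74, a difference of -0.37 ± 0.089. In both genes the CR daughter was lower on all 6 slides.

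Bin1, a protein that bends membranes in endocytosis, read -0.18 to 0.03 against -0.01 to 0.30, a difference of -0.26 ± 0.059. Anxa2, a calcium-dependent membrane and actin binding annexin, read 0.08 to 0.56 against 0.46 to 0.95, a difference of -0.38 ± 0.093. It was the leading lower gene with a slide in the other direction (lower on 5 of 6). The tropomyosin Tpm4, which stabilizes actin filaments, read -0.20, -0.185 and 0.03 in CR daughters and 0.06, 0.185 and 0.63 in controls, a difference of -0.37 ± 0.089 with no overlap.

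The Schlafen genes Slfn4 and Slfn2, the first linked to myeloid cells and the second to T cell quiescence, were lower by this measure as well. Slfn4 read -0.66, -0.415 and -0.02 against -0.02, 0.21 and 0.26, a difference of -0.50 ± 0.11 (adjusted p = 0.682). Slfn2 read -0.09 to 0.42 against 0.24 to 0.52, a difference of -0.35 ± 0.085. The family has close copies, and whether a probe reads more than 1 of them was not tested. The remaining leaders were the RNA-binding protein Hnrnpc (-0.27 ± 0.062, its second probe -0.17) and Uba1, the enzyme that activates ubiquitin (-0.26 ± 0.062, its second probe -0.28).

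**Figure D1:**
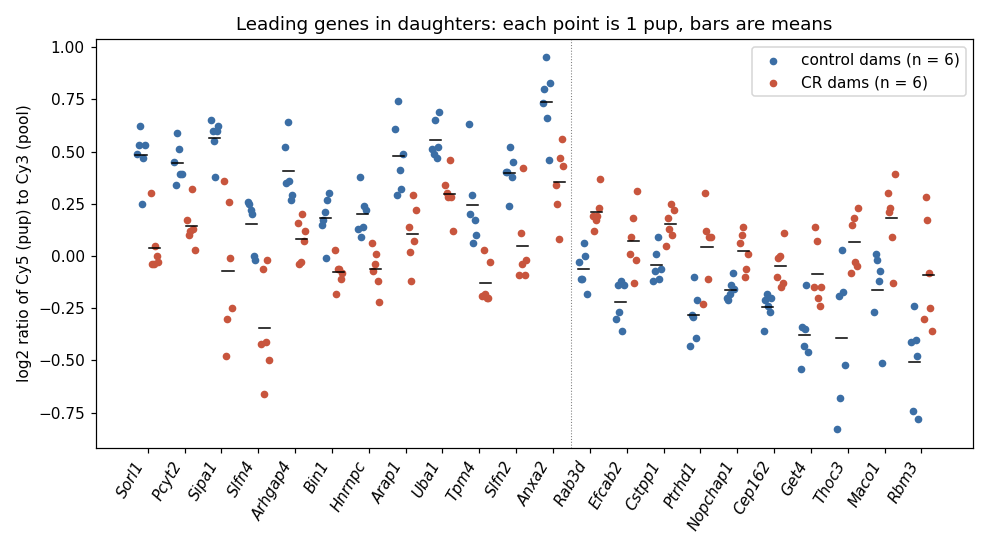
Log2 ratio of pup to pool (y axis) in each of the 6 control and 6 CR daughters for the leading lower genes (left of the dotted line) and 10 of the leading higher genes (right), with bars at the group means. The groups do not overlap in Pcyt2, Sipa1, Arhgap4, Hnrnpc, Uba1, Tpm4, Rab3d and Cep162.

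On the higher side the named genes with the smallest p differed by 0.19 to 1.93, and 5 of the 12 were higher in the CR daughter on all 6 slides. Rab3d, a small GTPase of regulated secretion, read 0.12, 0.19 and 0.37 in CR daughters and -0.18, -0.07 and 0.06 in controls. The groups did not overlap and the difference was 0.28 ± 0.056 (adjusted p = 0.643), but a second Rab3d probe gave 0. The result for Rab3d thus belongs to 1 of its 2 probes.

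Cep162, a centriole protein, read -0.15 to 0.11 against -0.36 to -0.18, a difference of 0.20 ± 0.054 with no overlap, and its second probe gave 0.039. Cstpp1, a regulator of tubulin modification at centriolar satellites, differed by 0.20 ± 0.053. Nopchap1, which helps to assemble small nucleolar ribonucleoproteins, differed by 0.19 ± 0.05. Rbm3, a cold-inducible RNA-binding protein, read -0.36, -0.165 and 0.28 against -0.78, -0.445 and -0.24, a difference of 0.42 ± 0.13, and was higher on 6 of 6 slides though the groups overlapped. Get4, part of the route that inserts tail-anchored membrane proteins, differed by 0.29 ± 0.082, and its second probe by 0.26. Thoc3, a subunit of the complex that couples transcription to mRNA export, differed by 0.46 ± 0.13, with control values from -0.83 to 0.03. The EF-hand protein Efcab2 (0.29 ± 0.075), Ptrhd1, which holds a peptidyl-tRNA hydrolase domain (0.33 ± 0.088), and the membrane protein Maco1 (0.35 ± 0.10, other probes 0.077 and 0.11) were also among the 12.

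Ldhb, a lactate dehydrogenase subunit, had the largest difference of these, 1.93 ± 0.58 or 3.82-fold higher (adjusted p = 0.902), and was not a shift of the whole group. Control daughters lay at 2 levels: 4 read -2.52, -2.42, -2.34 and -2.30, and the others read 0.47 and 0.85. All 6 CR daughters read between 0.29 and 1.30, inside or near the upper level. On 2 of 6 slides the CR daughter was the lower one.

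The pathway lists leaned downward for lipid synthesis. They were chosen with earlier results of these data known, and no list was tested. Of 18 measured genes of fatty acid synthesis and desaturation, 15 were below 0 and 3 were lower at p under 0.05 with 0 higher, and the list's median was -0.12, against 0.003 for all features and -0.011 for features with a symbol. The list's mean per array was -0.08 to 0.17 in CR and 0.01 to 0.14 in control daughters, and lower in the CR daughter on 5 of 6 slides. CR daughter 6 held the highest value of either group. Fasn, the fatty acid synthase, read -0.25, -0.19 and 0.12 against 0.01, 0.095 and 0.34. CR daughter 6 was again the one within the control range, and the difference was -0.27 ± 0.079, lower on 6 of 6 slides. The second Fasn probe gave -0.35.

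Srebf1, which encodes the SREBP-1 activator of fatty acid synthesis, read -0.35, -0.255 and 0.07 against -0.17, 0 and 0.25, a difference of -0.21 ± 0.084, and its second probe gave -0.23. Scd, the stearoyl-CoA desaturase, read -0.19 to 0.21 against 0.03 to 0.33, a difference of -0.19 ± 0.073, and was above background on 5 of 6 CR arrays. In sons Scd differed by -0.19 ± 0.10 and Srebf1 by -0.14 ± 0.094. Daughters minus sons was 0.004 ± 0.14 (adjusted p = 0.998) for Scd and -0.067 ± 0.13 (adjusted p = 0.971) for Srebf1.

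The sterol list held 20 of 24 measured genes below 0, with 2 lower and 0 higher at p under 0.05 and a median of -0.053. Its mean per array was lower in the CR daughter on 6 of 6 slides, at -0.06 to 0.06 against 0.02 to 0.11. Cyp51, the lanosterol demethylase, read -0.13, -0.085 and 0.01 against -0.05, 0.175 and 0.29, a difference of -0.20 ± 0.064. Fdps, which makes farnesyl diphosphate, read -0.03, 0.10 and 0.34 against 0.12, 0.325 and 0.37, a difference of -0.16 ± 0.071, and its other probes gave -0.16 and -0.14. Srebf2, the activator of sterol synthesis, differed by -0.31 ± 0.15, but by -0.042 at its second probe.

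Among phospholipid genes, 12 of 18 were below 0 and 3 were lower at p under 0.05 with 0 higher (median -0.066). Without CR daughters 5 and 6 these were 11 of 18 and 2, and the median was -0.028. Pcyt2, the rate-limiting enzyme that makes CDP-ethanolamine for phosphatidylethanolamine (probe at chr10:110002689-110002841 of rn4), had the smallest p of this list. It read 0.03, 0.125 and 0.32 in CR daughters and 0.34, 0.42 and 0.59 in controls. Every control was above every CR daughter, and the difference was -0.30 ± 0.059, 1.23-fold lower (adjusted p = 0.643). In sons it was -0.092 ± 0.065, and daughters minus sons was -0.21 ± 0.09 (adjusted p = 0.931). Lpcat3, which inserts polyunsaturated acyl chains into phospholipids, differed by -0.23 ± 0.089. Chka, the choline kinase, differed by -0.17 ± 0.073.

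Promoter sequence is shown for 4 of the genes with lower values, since a CCAAT box, the site bound by the factor NF-Y, is a known element of sterol and MHC class II promoters. These 4 were picked after their values were seen, each holding 2 matches. Each line gives the 250 bases before the start in RefSeq on GRCr8, on the gene's strand, with CCAAT or its reverse complement ATTGG in capitals. The Pcyt2 stretch is chr10:106394469-106394718 and that of Fdps is chr2:176804817-176805066, and RT1-Db1 and RT1-DMa lie at chr20:4560163-4560412 and chr20:4712336-4712585, all on the minus strand.
Pcyt2: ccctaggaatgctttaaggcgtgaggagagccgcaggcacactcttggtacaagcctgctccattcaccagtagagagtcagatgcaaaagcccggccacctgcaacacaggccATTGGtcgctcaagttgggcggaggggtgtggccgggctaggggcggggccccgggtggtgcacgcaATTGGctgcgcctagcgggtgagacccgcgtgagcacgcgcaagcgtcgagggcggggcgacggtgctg
Fdps: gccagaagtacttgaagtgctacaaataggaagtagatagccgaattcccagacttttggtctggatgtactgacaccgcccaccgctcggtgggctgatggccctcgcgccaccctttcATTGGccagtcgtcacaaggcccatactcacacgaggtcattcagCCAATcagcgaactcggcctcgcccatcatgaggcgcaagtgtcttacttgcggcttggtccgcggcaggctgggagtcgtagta
RT1-Db1: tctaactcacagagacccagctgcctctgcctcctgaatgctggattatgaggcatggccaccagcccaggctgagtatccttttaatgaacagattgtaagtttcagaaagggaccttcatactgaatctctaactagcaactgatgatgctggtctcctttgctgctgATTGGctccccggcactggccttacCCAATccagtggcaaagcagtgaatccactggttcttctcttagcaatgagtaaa
RT1-DMa: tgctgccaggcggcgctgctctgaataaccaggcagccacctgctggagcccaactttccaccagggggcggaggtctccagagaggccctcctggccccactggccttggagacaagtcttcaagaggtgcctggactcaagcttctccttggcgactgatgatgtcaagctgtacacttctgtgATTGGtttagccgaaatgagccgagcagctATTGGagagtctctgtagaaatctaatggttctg
The boxes begin 136 and 69 bases before the start in Pcyt2, 130 and 85 in Fdps, 80 and 55 in RT1-Db1, and 64 and 34 in RT1-DMa. A box was found in 34.0% of all 33469 promoters of this length. By gene, it was found in 15 of 19 of the sterol list, 11 of 20 of the phospholipid list and 9 of 12 of the class II list. A gene counted when any of its promoters held a box, so the list counts and the share of all promoters are not the same measure. A match describes the letters only.

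Lipid transport genes and sterol receptors were below 0 in 19 of 25 cases, with 4 lower, Sorl1 among them, and 0 higher at p under 0.05 (median -0.048). Without CR daughters 5 and 6, 20 were below 0, 2 were lower at p under 0.05 and the median was -0.12. Rxrb, a retinoid X receptor that pairs with lipid-sensing nuclear receptors, read -0.03, 0.025 and 0.21 against 0.01, 0.26 and 0.47, a difference of -0.19 ± 0.072. In sons it differed by -0.34 ± 0.12. Lrp1, a large endocytic receptor for lipoproteins, differed by -0.26 ± 0.12, and by -0.047 at its second probe. Of 13 genes of triglyceride storage and lipolysis 10 were below 0, and the list's mean was lower in the CR daughter on 6 of 6 slides. Its leader was Lipa, the lysosomal acid lipase, which read -0.42, 0.115 and 0.48 against 0.34, 0.52 and 0.62, a difference of -0.42 ± 0.12. Lipe, the hormone-sensitive lipase, differed by 0.11 ± 0.066 and was above background in 4 of 6 pups of each group.

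Genes of fatty acid oxidation did not lean the same way over all 12 pups. Of 23 measured, 9 were below 0, 1 was lower and 1 higher at p under 0.05, and the median of 0.028 changed sign after median centring (-0.003) and after scaling between arrays (-0.004). Without control daughter 5 it was -0.002, and without CR daughter 6 it was -0.027. Without CR daughters 5 and 6, 15 of 23 were below 0, 3 were lower and 1 higher at p under 0.05, and the median was -0.061. The contrast with the synthesis lists thus changed with the scaling and with the pups kept. Decr1, an auxiliary enzyme for unsaturated fatty acids, read -0.39, -0.15 and -0.02 against -0.69, -0.49 and -0.21, a difference of 0.26 ± 0.095. Acadm, the medium-chain dehydrogenase, differed by -0.13 ± 0.053. Cpt1a, which admits fatty acids to mitochondria, read -0.07, 0.335 and 0.41 against -0.13, 0.165 and 0.40. It differed by 0.10 ± 0.10 in daughters and by 0.37 ± 0.12 in sons, and daughters minus sons was -0.27 ± 0.17 (adjusted p = 0.931).

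Glycolysis held 15 of 19 genes below 0, with 4 lower and 1 higher (Ldhb) at p under 0.05 and a median of -0.12, which moved to -0.007 after scaling between arrays. Pgam1, the phosphoglycerate mutase, read -0.42 to 0.04 against -0.23 to 0.16, a difference of -0.24 ± 0.087. Pfkm, a subunit of phosphofructokinase, differed by -0.14 ± 0.051. Of insulin and nutrient signalling genes 11 of 20 were below 0 and 2 were lower at p under 0.05: the kinase Akt1 (-0.20 ± 0.072) and the mTOR inhibitor Tsc2 (-0.18 ± 0.08).

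**Figure D2:**
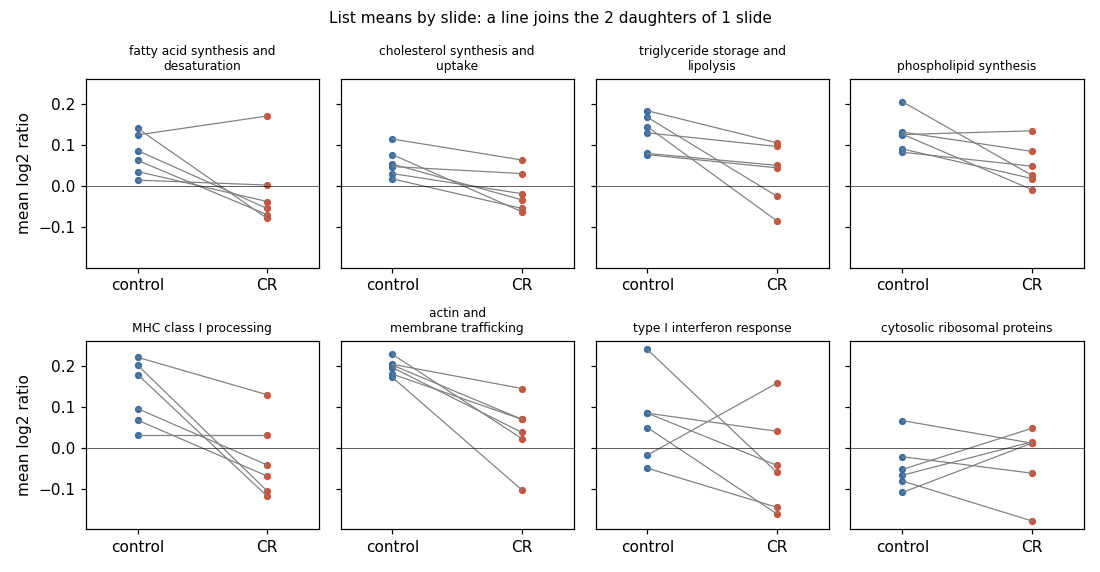
Mean log2 ratio of pup to pool over the measured members of 8 lists (y axis) in control and CR daughters, with a line joining the pair of daughters that shared a slide. The sterol, triglyceride, MHC class I and actin lists were lower in the CR daughter on 6 of 6 slides. For MHC class I, control daughter 2 and CR daughter 2 both rounded to 0.03. Fatty acid synthesis, phospholipid synthesis and type I interferon genes were lower on 5 of 6 slides, and ribosomal proteins on 3 of 6.

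The list of actin and membrane trafficking genes separated the arrays. Its mean was -0.10, 0.05 and 0.14 (lowest, median and highest) in CR daughters and 0.17, 0.20 and 0.23 in controls, with no overlap. Of 27 measured members 23 were below 0, and 8 were lower and 0 higher at p under 0.05 (median -0.13). The list contains Sorl1, Bin1, Anxa2 and Stk10, which were known as leading genes from earlier results of these data when it was written. Without these 4, 19 of 23 were below 0, 4 were lower at p under 0.05, the median was -0.10 and the array means overlapped (-0.13 to 0.15 against 0.12 to 0.20). Stk10, a kinase of the ezrin family proteins that tie actin to the membrane, read -0.17 to 0.05 against 0.05 to 0.25, a difference of -0.21 ± 0.052.

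Outside the rule for named genes, and chosen after their values were seen for groups that did not overlap, Dctn1 (the dynactin subunit that links dynein to cargo) differed by -0.26 ± 0.066 and Mprip (which targets myosin phosphatase to actin) by -0.24 ± 0.063. So did Map4k1, a kinase of lymphocyte receptor signalling (-0.32 ± 0.089), and Helz2, a nuclear receptor coactivator (-0.30 ± 0.075).

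B cell and MHC class II transcripts were at the low end of the lists. Of 11 measured B cell genes 7 were below 0, and 4 were lower and 0 higher at p under 0.05 (median -0.23). The mean of the 11 genes was lower in the CR daughter on 4 of 6 slides. In sons all 11 were below 0 (median -0.37). Ms4a1, the B cell surface protein CD20, read -0.75, -0.24 and 0 in CR daughters against -0.14, 0.24 and 0.71 in controls, a difference of -0.54 ± 0.16 and lower on 6 of 6 slides. CR daughter 3 was far below the others. Cd22, an inhibitory B cell receptor, differed by -0.32 ± 0.093, and Fcer2, the low-affinity IgE receptor, by -0.46 ± 0.19. In sons these 3 genes differed by -0.50 ± 0.18, -0.22 ± 0.11 and -0.34 ± 0.21.

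Of 9 genes of dendritic cells and class II presentation 8 were below 0 and 4 were lower at p under 0.05 (median -0.34). RT1-Db1, a class II beta chain, read -0.37, 0.025 and 0.38 against 0.26, 0.445 and 0.96, a difference of -0.51 ± 0.15. Its other probes gave -0.48 and -0.24. RT1-DMa, which loads peptide onto class II, read -0.40, 0.205 and 0.36 against 0.33, 0.475 and 0.65, a difference of -0.34 ± 0.12. Cd74, the invariant chain, read -0.65 to 0.61 against 0.10 to 0.99, a difference of -0.62 ± 0.22. The values of Cd74 overlapped widely, and CR daughter 3 was the lowest for RT1-DMa.

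RT1-Bb, another class II beta chain, behaved differently. CR daughters 2, 3 and 5 read -3.49, -4.58 and -3.41, while the other CR daughters read 0.40 to 1.01 and the controls -0.08 to 1.93. Its second probe differed by -0.29 against -2.05 ± 0.95 for the first, so the low level belongs to 1 of 2 probes.

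Monocyte genes were below 0 in 16 of 18 cases in daughters and in 1 of 18 in sons (medians -0.18 and 0.13). In daughters 3 were lower and 0 higher at p under 0.05. Csf1r, the receptor for the monocyte growth factor CSF-1, read -0.47, 0.24 and 0.60 against -0.06, 0.785 and 1.06, a difference of -0.50 ± 0.20. Lyz2, lysozyme, differed by -0.48 ± 0.19 and was lower on 4 of 6 slides, and Ctss, the protease cathepsin S, by -0.19 ± 0.07 and by -0.22 at its second probe. In sons the 3 genes differed by 0.034 ± 0.23, 0.077 ± 0.25 and 0.03 ± 0.096. The departure from sons was tested gene by gene in limma: 2 of the 18 had an unadjusted interaction p under 0.05, against 4.65% of all features. Daughters minus sons was -0.54 ± 0.32 (adjusted p = 0.931) for Csf1r.

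T cell genes had no member at p under 0.05 in either direction among 19, and their median of -0.063 turned to 0.026 after scaling between arrays, to 0.003 without control daughter 3 and to 0.014 without CR daughter 6. They were below 0 in 12 of 19 cases over all pups and in 7 of 19 without CR daughters 5 and 6 (median 0.021). Cd3g, a chain of the T cell receptor complex, differed by -0.12 ± 0.057. NK and cytotoxic genes were below 0 in 5 of 15 cases (median 0.039, which turned to -0.011 without CR daughter 2 and -0.001 without CR daughter 3). Ncr1, an activating NK receptor, differed by 0.17 ± 0.075 and was higher on 6 of 6 slides, but was above background in only 3 of 6 controls. Neutrophil genes were below 0 in 2 of 13 cases (median 0.11). Stfa2, a stefin of neutrophils, read -0.68 to 0.83 against -1 to -0.15, a difference of 0.66 ± 0.23. The neutrophil list's mean ran from -0.49 in CR daughter 1 to 0.97 in CR daughter 4.

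Platelet and red cell transcripts were spread widely between pups of the same diet group. The platelet mean ran from -1.37 (CR daughter 4) to 1.44 (CR daughter 6), and controls lay between -0.56 and 0.66. Of 12 platelet genes 11 were below 0 and 0 reached p under 0.05 (median -0.20). Pf4, platelet factor 4, read -2.66, -0.685 and 1.92 against -0.81, 0.10 and 1.31. With CR daughters 5 and 6 left out, 12 of 12 were below 0, 10 were lower at p under 0.05 and the median was -0.75. Those pups held the highest platelet means of the CR daughters (0.41 and 1.44), the others lying at -1.37 to -0.19. A lower platelet median without them was thus built in, and 1574 of 19787 features reached p under 0.05 in that setting. The red cell mean reached 1.46 in CR daughter 5 and lay at -0.93 to -0.35 in the other CR daughters, against -1.12 to 0.86 in controls. Without CR daughters 5 and 6, 16 of 17 red cell genes were below 0 and 4 were lower at p under 0.05 (median -0.54), against 14 and 0 with them, while in sons 2 of 17 were below 0. With CR daughter 5 left out, lower red cell values were likewise built in. After scaling between arrays the red cell median of -0.19 became 0.005. The part of these cell type differences in the other lists was not tested. Without those 2 daughters the fatty acid synthesis list had 13 of 18 genes below 0 and 5 lower at p under 0.05, the actin list 21 of 27 and 8 (median -0.081), the class II list 8 of 9 and 6, and the monocyte list 18 of 18 and 3. CR daughter 6 held the highest fatty acid synthesis mean (0.17), so that list's counts without her depend on the choice.

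**Figure D3:**
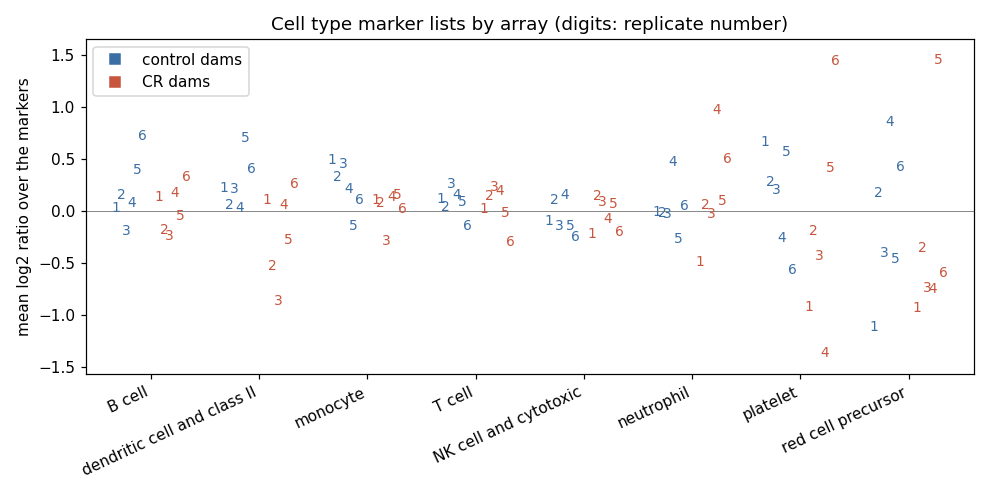
Mean log2 ratio of pup to pool (y axis) over the measured markers of 8 cell types in each daughter, with the replicate number as the symbol, control in blue and CR in red. CR daughter 6 is highest for platelets at 1.44 and CR daughter 5 for red cell precursors at 1.46, while T cell and NK cell means stay within -0.30 to 0.26.

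Antigen presentation by MHC class I was below 0 in 15 of 17 genes, with 3 lower and 0 higher at p under 0.05 (median -0.13). Its mean was lower in the CR daughter on 6 of 6 slides, although control daughter 2 and CR daughter 2 both rounded to 0.03. Calr, a chaperone of class I loading, read -0.40, -0.025 and 0.30 against 0.22, 0.41 and 0.79, a difference of -0.46 ± 0.12. In sons it differed by 0.41 ± 0.23, and daughters minus sons was -0.87 ± 0.32 (adjusted p = 0.931). Psme2, a subunit of the proteasome activator PA28, read -0.18 to -0.02 against -0.03 to 0.12, a difference of -0.14 ± 0.045 and lower on 6 of 6 slides. Tap2, a subunit of the peptide transporter, differed by -0.65 ± 0.25 over a wide control range of -0.22 to 1.29. Among 36 proteasome subunits 23 were below 0 and 0 reached p under 0.05 (median -0.015, and -0.023 with 1 higher at p under 0.05 without CR daughters 5 and 6).

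Of 34 type I interferon genes 24 were below 0, and 4 were lower and 0 higher at p under 0.05 (median -0.064). Zbp1, a sensor of nucleic acids, read -0.17, 0.15 and 0.29 against 0.27, 0.39 and 0.54, a difference of -0.26 ± 0.084. Oasl2, an oligoadenylate synthetase-like protein, differed by -0.27 ± 0.095 and Parp14 by -0.17 ± 0.07 (second probe -0.073). NF-kB and inflammatory genes were below 0 in 15 of 20 cases (median -0.053, and -0.10 without CR daughters 5 and 6). Their leader Nfkb2, the p100 subunit, differed by -0.30 ± 0.11 in daughters and -0.41 ± 0.15 in sons, with a second probe at -0.069.

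Cell cycle genes were below 0 in 7 of 24 cases in daughters and in 21 of 24 in sons (medians 0.078 and -0.11). Without CR daughters 5 and 6, 10 of 24 were below 0 in daughters (median 0.032). None of the 24 had an interaction p under 0.05. Mcm7, a subunit of the replicative helicase, differed by -0.59 ± 0.19, while Mcm4 of the same complex differed by 0.13 ± 0.056 and by -0.039 at its second probe. Heat shock and cold response genes held 10 of 16 below 0 (median -0.024), and 7 of 16 without CR daughters 5 and 6 (median 0.004). Their mean was lower in the CR daughter on 1 of 6 slides. Hspa8, the constitutive HSP70, read -0.59, -0.33 and -0.13 against -0.17, -0.005 and 0.07, a difference of -0.31 ± 0.076, and its other probes gave -0.31, -0.37 and -0.26. Hsph1, a co-chaperone of HSP70, differed by -0.16 ± 0.056 in daughters and 0.13 ± 0.079 in sons. Of 71 cytosolic ribosomal protein genes 26 were below 0 and 2 were higher at p under 0.05 (Rplp2, 0.20 ± 0.071, and Rpl38, 0.14 ± 0.06). Their median of 0.031 turned to -0.031 after scaling between arrays, while without CR daughters 5 and 6 it was 0.08, with 15 below 0 and 11 higher at p under 0.05.

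**Figure D4:**
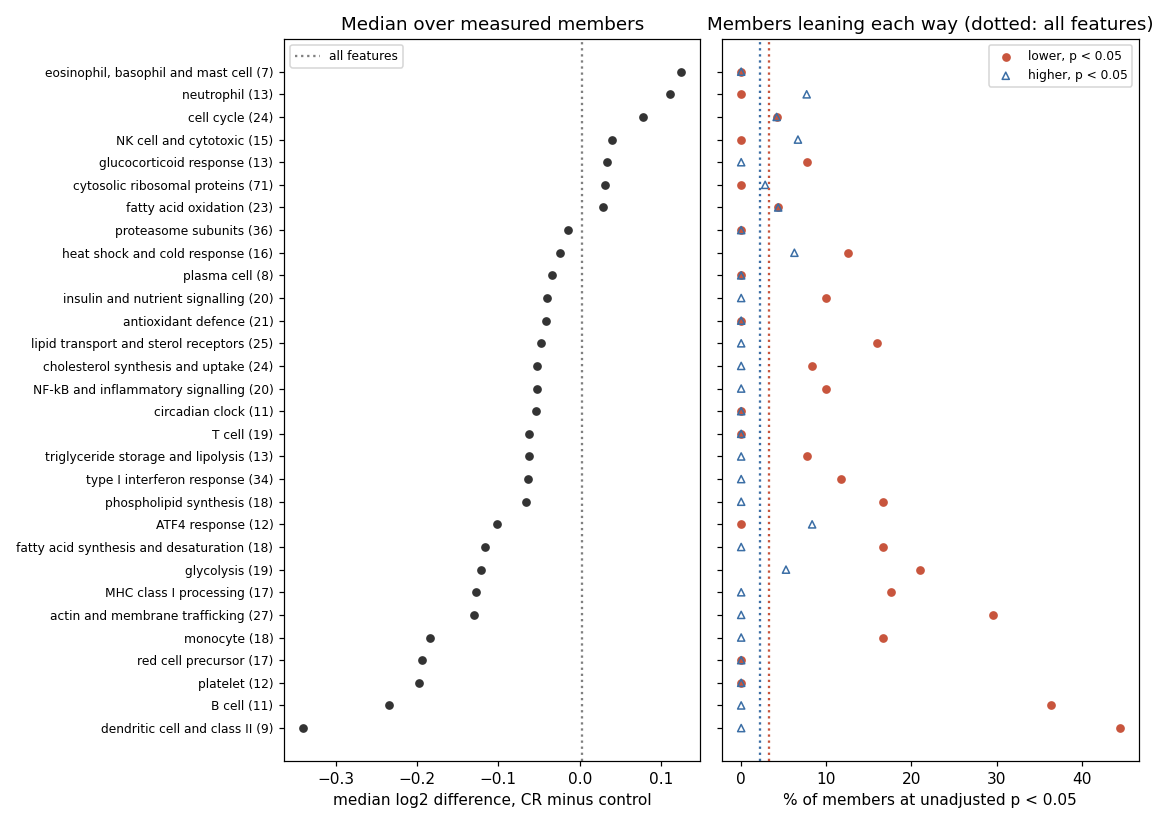
Left, the median log2 difference (CR minus control daughters) over the measured members of each of 30 lists, with the number measured in brackets and the median of all features dotted. Right, the percentage of members lower (red) or higher (blue) at an unadjusted p under 0.05, with the percentages of all features (3.21 and 2.19) dotted. The class II and B cell lists lie lowest, at -0.34 and -0.23.

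Whether the effect of the dam's diet differed between daughters and sons was tested directly, over all 23 arrays. In limma 0 of 19787 features (0%) had an adjusted interaction p under 0.05, and the smallest adjusted p was 0.925. At an unadjusted interaction p under 0.05 there were 921 features (4.65%), against 989 expected by chance. Of the 12 leading lower genes 9 had an unadjusted interaction p under 0.05, and in sons the 12 lay between -0.16 and 0.095. Because these genes were chosen for small p-values in daughters, that count reads high by choice and supports nothing further. Sorl1 differed by -0.055 ± 0.11 in sons, and daughters minus sons was -0.39 ± 0.15 (adjusted p = 0.931). Tpm4 and Slfn2 differed by 0.094 ± 0.12 and 0.095 ± 0.11 in sons, and daughters minus sons was -0.46 ± 0.16 (adjusted p = 0.931) and -0.45 ± 0.15 (adjusted p = 0.931).

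By the smallest unadjusted interaction p, the genes lower in daughters than in sons began with Rreb1, a zinc finger factor of Ras signalling. It differed by -0.089 ± 0.053 in daughters and 0.28 ± 0.053 in sons, and daughters minus sons was -0.36 ± 0.073 (adjusted p = 0.925). The membrane protein Emp3 differed by -0.14 ± 0.078 and 0.29 ± 0.08, the lipid phosphatase Mtmr6 by -0.19 ± 0.055 and 0.20 ± 0.078, and Skic3, of the complex that unwinds RNA for the exosome, by -0.16 ± 0.065 and 0.15 ± 0.062. In each of these the sexes lay on opposite sides of 0.

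In the other direction Anapc7, a subunit of the anaphase-promoting complex, differed by 0.16 ± 0.06 in daughters and -0.47 ± 0.10 in sons, and daughters minus sons was 0.62 ± 0.14 (adjusted p = 0.931). Arhgef25 differed by 0.14 ± 0.058 and -0.29 ± 0.088. Bloc1s2, which helps to form lysosome-related organelles, differed by 0.13 ± 0.059 and -0.21 ± 0.072, and Tmed9, a cargo receptor of the early secretory pathway, by 0.46 ± 0.17 and -0.31 ± 0.17. Thoc3, high in CR daughters, differed by -0.38 ± 0.19 in sons.

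**Figure D5:**
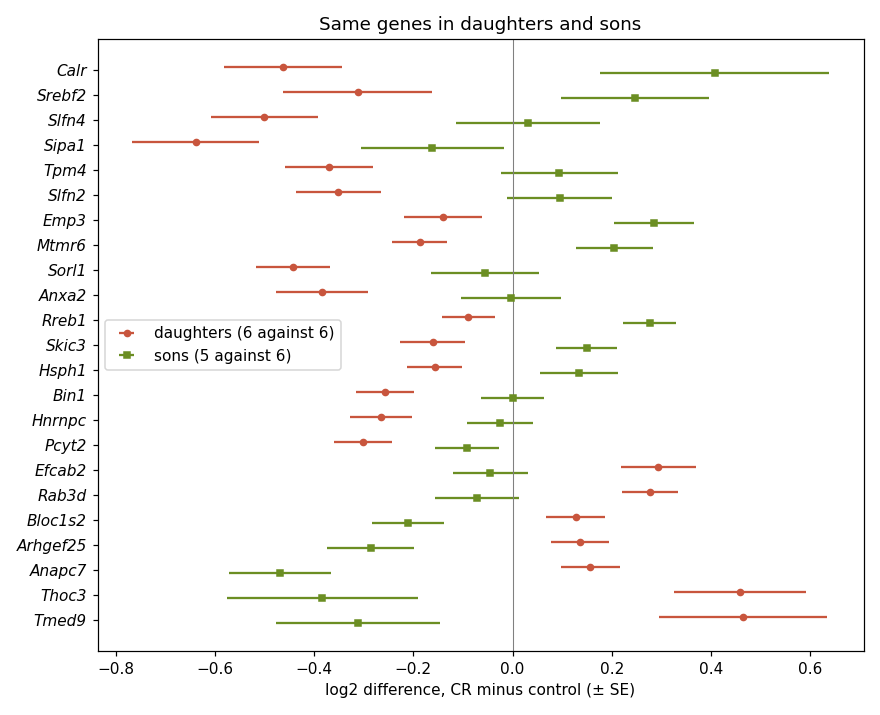
Log2 difference (CR minus control, x axis) with its standard error in daughters (circles) and sons (squares) for genes named for their difference in daughters or between the sexes. The sons' values for Bin1 and Anxa2 lie at 0 and -0.003, while Anapc7, Arhgef25, Bloc1s2, Thoc3 and Tmed9 lie on the other side of 0 from the daughters.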

How the data were processed

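The authors hybridized arrays of the rat design 014879 and read them in Feature Extraction 10.5.1.1 (submitters' processing notes). Scanner output deposited by them holds, unnormalized, an intensity for each spot in each channel. It also holds, per the file headers, a log10 ratio normalized for dye by the same software, and other columns with flags on spots. A deposited table of 22920 spots gives log2 levels whose columns share a median of 7.226 and follow Cy5 of the same array (r across spots of 0.973 to 0.998). Its method is not given in the sources used here, and it served as an alternative. All its columns belonged to a sample, and the arrays' number limits the precision.

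Intensities were corrected with limma's normexp (offset 50) and normalized by loess within arrays, with control spots at weight 0. Outlier spots (127 to 427 per daughter's array) were set to missing. Probes were kept when Cy5 was well above background on at least 50% of the arrays of either daughters' group, which left 23252 of 41012, and each gene was read from its brightest probe. Names came from RefSeq (GRCr8, names only), which matched 19703 of 41012 probes. The 12 daughters entered limma (3.58.1, R 4.3.3), with Benjamini-Hochberg adjustment over all features and a threshold of 0.05. The difference from sons was an interaction over 23 arrays. Simulated data had independent normal noise at each feature's own spread, with 100 changed features per size. The test recovered 69% at a log2 change of 0.5 and 97% at 1, with 6 false calls among the unchanged features. Effects shared by genes of an array, cell mix and litters were not simulated, so these shares may not hold for the real arrays.

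Genes were named by rule: the 12 smallest p-values each way among genes with a symbol, up to 3 per list, the 10 widest spreads over the 12 daughters, 4 each way for the difference from sons, and Fasn, Srebf1, Scd, Pcyt2, Cpt1a, Lipe, Lrp1 and Rxrb. Some genes that meet the rule are not printed. The members and the 31 lists were chosen with earlier results of these data known. The result of 1 list is not reported here. Same-numbered daughters shared a slide, and the correlations of their deviations from the group means were 0.232, 0.323, -0.009, 0.268, -0.238 and 0.065. Alternatives covered background, normalization, filter, probe choice, quality weights, the slide as a block and leaving out each pup. All RNA had an integrity number above 8, per the labels' protocols, and 40 ng was labelled.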

Additional observations from a re-analysis of the deposited data

Results flagged for a closer look

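Of 178 groups of values (89 genes in 2 groups), those with a missing value were not examined. In 12 of the remaining groups of 6 values, the highest or lowest pup lay far from the rest. Its gap to its neighbour, as a share of the group's range, was above Dixon's 95% critical value for 6 values. Chance flags about 5% of such groups. CR daughter 1 read 0.30 for Sorl1, with the other 5 at -0.04 to 0.05. Control daughter 4 read 0.38 for Sipa1, with the other 5 at 0.55 to 0.65. CR daughter 2 read 1.30 for Ldhb, with the other 5 at 0.29 to 0.55. CR daughter 3 read -0.75 for Ms4a1, with the other 5 at -0.27 to 0.00. CR daughter 3 read -0.40 for RT1-DMa, with the other 5 at 0.15 to 0.36. Control daughter 5 read 1.93 for RT1-Bb, with the other 5 at -0.08 to 0.66. Control daughter 2 read -0.35 for Mcm7, with the other 5 at 0.49 to 0.80. CR daughter 5 read 2.60 for Alox15, with the other 5 at -1.46 to -0.74. CR daughter 3 read -0.17 for Map4k1, with the other 5 at 0.15 to 0.33. CR daughter 6 read -0.29 for Helz2, with the other 5 at -0.07 to 0.04. Control daughter 1 read 2.48 for Fabp6, with the other 5 at -2.82 to -1.38. Control daughter 1 read 1.57 for Reg3b, with the other 5 at -3.26 to -1.94. CR daughter 3 appears 3 times, always at the low end, for 1 B cell gene, 1 class II gene and Map4k1. Control daughter 1 was the high array for both gut transcripts, Fabp6 (a bile acid binding protein) and Reg3b (an antimicrobial lectin). Without that pup Reg3b differed by 0.04 between CR and control daughters, against -0.68 ± 0.72 with it.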

How the results depend on the processing

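The number of features at adjusted p under 0.05 stayed at 0 under all 13 alternatives that keep every pup, with the smallest adjusted p at 0.0764 (the scanner's log ratio), and the interaction stayed at 0 under each alternative run. Leaving out 1 pup at a time gave 0 to 1: without CR daughter 4, 1 feature (XM_341158, similar to a nonmuscle actin) had an adjusted p of 0.0444 at -0.44, against 0.902 at -0.35 ± 0.09 with all pups. The count at unadjusted p under 0.05 was 1069, and became 379 with median centring in place of loess and 1778 with array quality weights. Without 1 pup it ranged from 673 (CR daughter 3) to 1645 (CR daughter 4). With the slide as a replicate block it was 1341 (smallest adjusted p 0.427), and the block changed no call at the adjusted threshold. The same-numbered daughters did not all deviate together. Features whose groups do not overlap numbered 41, 9 with median centring, 54 to 187 without 1 pup and 235 without CR daughters 5 and 6, with fewer pups to overlap in the last settings. The causes of the other shifts were not tested. Among 2220 values of 89 genes, 1 changed sign (Reg3b, 0.04 without control daughter 1, against -0.93 to 0.04 over the settings that leave out 1 pup), and 22 of 589 list medians did, over 10 lists. Probes not well above background limit the dim genes.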

Other observations

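Further lists were not part of the account above. Antioxidant genes were below 0 in 18 of 21 cases with 0 at p under 0.05 (median -0.041), and without CR daughters 5 and 6 in 19 of 21 with 6 lower at p under 0.05 (median -0.13). Those pups held the highest antioxidant means of the CR daughters (0.35 and 0.05), so lower values without them were built in. Genes of the ATF4 response to amino acid shortage were below 0 in 9 of 12 cases (median -0.10), yet their member with the smallest p, the pseudokinase Trib3, lay the other way at 0.23 ± 0.10. Circadian clock genes were below 0 in 8 of 11 cases with 0 at p under 0.05 (median -0.054). Glucocorticoid response genes were below 0 in 6 of 13 cases (median 0.033, and 0.008 without CR daughters 5 and 6). Their member Hsd11b1, which regenerates active glucocorticoid, differed by -0.18 ± 0.084 in daughters and 0.21 ± 0.10 in sons, and by -0.03 at its second probe in daughters. Plasma cell genes were below 0 in 6 of 8 cases and eosinophil, basophil and mast cell genes in 3 of 7, each with 0 at p under 0.05. The latter median of 0.12 was -0.021 without CR daughters 5 and 6.

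A few genes spread over many-fold ranges within each diet group. Fabp6 read below -1 in 11 of 12 daughters. Alox15, a lipoxygenase, read -1.46 to -0.74 in 5 CR daughters and 2.60 in CR daughter 5, and -1.88 to 1.5 in controls. It was listed with eosinophil genes, whose list mean was 0.47 in CR daughter 5 and 0.55 in CR daughter 6. In CR daughter 6 Alox15 read -1.17. CR daughter 5 also held the highest red cell list mean (1.46). Which cells the Alox15 signal came from was not tested. Adamts13, the protease that cuts von Willebrand factor, read below -1 in 3 CR and 3 control daughters and above 1 in 1 CR and 3 control daughters. Its probe was well above background in 2 CR and 4 control daughters. Defa5, a defensin, read -2.22, -0.535 and 2.69 in CR daughters and -0.47, 0.445 and 1.66 in controls. None of these had an unadjusted p under 0.05 between the diet groups in limma.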
